A study of Homo sapiens with 12 samples.

Results

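The genes described here handle zinc: the SLC30A and SLC39A zinc transporters, the metallothioneins MT1 and MT2A, and the transcription factor MTF1. They were taken by symbol from the count tables of 2 human bladder cancer lines, which gave 35 genes of 23064, namely 10 SLC30A, 14 SLC39A and 10 metallothionein genes and MTF1. The family was chosen by the measured fall of SLC39A11, which was among the strongest shared by both lines after knockdown of KMT9α, so the values of SLC39A11 are a description and no test is given for it. Counts of calls below are over the other 34 genes, and the counts of sequence matches say where SLC39A11 is included.

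Zinc is kept scarce as a free ion in the cytosol. SLC30A proteins (ZnT) move zinc out of the cytosol, across the plasma membrane or into organelles, and SLC39A proteins (ZIP) move it in the opposite direction. Metallothioneins are small cysteine-rich proteins that bind zinc and copper, and their genes lie in a cluster. MTF1 senses zinc and binds metal response elements in promoters, where it switches on metallothionein genes and SLC30A1, and metallothionein genes also respond to cadmium, oxidative stress and glucocorticoids.

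Both CAL-29 and 5637 are long-established lines from human bladder carcinomas, and all libraries carry the genotype label WT. RNA was collected on day 3 after transfection with the control siRNA siCtrl or with an siRNA against KMT9α (siKMT9α below), with 3 libraries for each siRNA in each line, 12 in all. This siRNA has no name in the labels and is si270 in the count tables; its identity with siKMT9α#1 rests on the study's text. Only this siRNA against KMT9α was sequenced, and the transfection reagent, the siRNA concentration and the culture medium differed between the lines, so none of these can be told apart from the line. Nothing states that the 3 libraries of a group came from separate cultures, so p-values measure the spread between these libraries, which may be technical.

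The libraries held between 24479348.5 and 35151256.5 counts on the transcripts used. A gene is said to rise or fall at an unadjusted p below 1e-06 in edgeR's quasi-likelihood test, the study's own threshold, and a Benjamini-Hochberg adjusted p below 0.05 over all genes tested is given beside it. N6AMT1, the gene of KMT9α, fell in both lines, with a log2 fold change of -2.00 (SE 0.15) in CAL-29 and -2.23 (SE 0.12) in 5637. All 9 urothelial carcinoma markers were at 1 CPM (counts relative to the TMM-scaled library total) or more in every group. Their summed level moved with the knockdown, from 13616 to 6484 CPM in CAL-29 and from 9024 to 6205 CPM in 5637. By group mean, only KRT7 was higher after knockdown in CAL-29 (77.4 to 94.2 CPM) and only TP63 in 5637 (125 to 161 CPM). The 4 superficial urothelium markers summed to 317 and 222 CPM in CAL-29 (siCtrl and siKMT9α) and to 6.43 and 1.39 CPM in 5637, most of it UPK1B. Immune markers summed to at most 3.22 CPM and endothelial markers to at most 4.44 CPM in a group, with CD3E at or near 0 throughout. Fibroblast markers summed to 40.0 and 14.4 CPM in 5637, most of it COL1A2, and to at most 4.80 CPM in CAL-29, with DCN at or near 0. The part of these shifts in the results below was not tested. In bulk RNA, fewer cells with a transcript and less of it per cell cannot be told apart.

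SLC39A11 (ZIP11), a zinc transporter of intracellular membranes, lies at chr17:70642088-71088851 on the minus strand of GRCh37. In CAL-29 it was at 30.4, 30.6 and 29.0 CPM in the siCtrl libraries and at 4.02, 4.07 and 5.21 CPM after siKMT9α. The siCtrl libraries of 5637 had 24.8, 23.4 and 26.1 CPM, and those after siKMT9α had 3.77, 4.36 and 2.92 CPM. The groups were far apart in both lines, and the levels after knockdown were alike. The log2 fold change was -2.77 (SE 0.10) in CAL-29, a 6.80-fold lower level, and -2.76 (SE 0.10) in 5637, a 6.78-fold lower level. The difference between these responses was 0.01 (95% interval -0.29 to 0.31). Of 1161 genes lower at p below 1e-06 in both lines, SLC39A11 ranked number 8 by the smaller of its falls, which is the value that brought the family forward. Among members above 10 CPM in all siCtrl libraries, the next lowest value was that of SLC39A13 in CAL-29, at -1.07.

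The 3′ UTR of SLC39A11 holds 2 copies of the heptamer ACATTCA, which is the complement of positions 2 to 8 of the antisense strand of siKMT9α#1 as the study's methods give it. The copies lie at bases 1352 and 1472 of the longest annotated 3′ UTR of SLC39A11 (GENCODE on GRCh37, 1635 bases). They are given here with 10 bases on either side, since SLC39A11 is the gene that brought the family forward, and the capitals mark the heptamer.
SLC39A11 copy 1, chr17:70642355-70642381, minus strand: cagagtttacACATTCAattgcttcca
SLC39A11 copy 2, chr17:70642235-70642261, minus strand: aattgaagacACATTCAgaggtttgat
The shortest annotated 3′ UTR of SLC39A11, of 238 bases, holds no copy. Of the 22 members, SLC39A11 included, that passed the count filter in both lines and have an annotated 3′ UTR of at least 50 bases, 4 (18.2%) hold a copy in the longest one, against 15.3% of 12376 genes chosen the same way. Without SLC39A11 it is 3 of 21 (14.3%). The members besides SLC39A11 are SLC30A7 with 2 copies and SLC39A6 and SLC30A1 with 1 copy each. SLC30A7 fell in both lines and SLC39A6 fell in 5637, as described below, and SLC30A1 was lower in both at the weaker threshold only. MTF1 and the 9 metallothioneins with an annotated 3′ UTR hold no copy. With the shortest 3′ UTR, the heptamer is in SLC30A1 and SLC30A7 but not in SLC39A6.

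Over all 12376 genes, the share that was lower at p below 1e-06 went up with the number of copies. In CAL-29 it was 13.3% of the 10479 genes without a copy, 28.6% of the 1540 genes with 1 copy and 42.9% of the 357 genes with 2 or more. In 5637 the shares were 15.5%, 37.9% and 51.0%. The median log2 fold change went from 0.05 to -0.23 and -0.47 in CAL-29 and from 0.03 to -0.26 and -0.52 in 5637. These genes also differ in 3′ UTR length, and a match to 7 letters is a description of sequence. What part the copies have in the lower level of SLC39A11, SLC30A7 or SLC39A6 was not tested, and with only this siRNA sequenced it cannot be told apart from the loss of KMT9α.

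**Figure D1:**
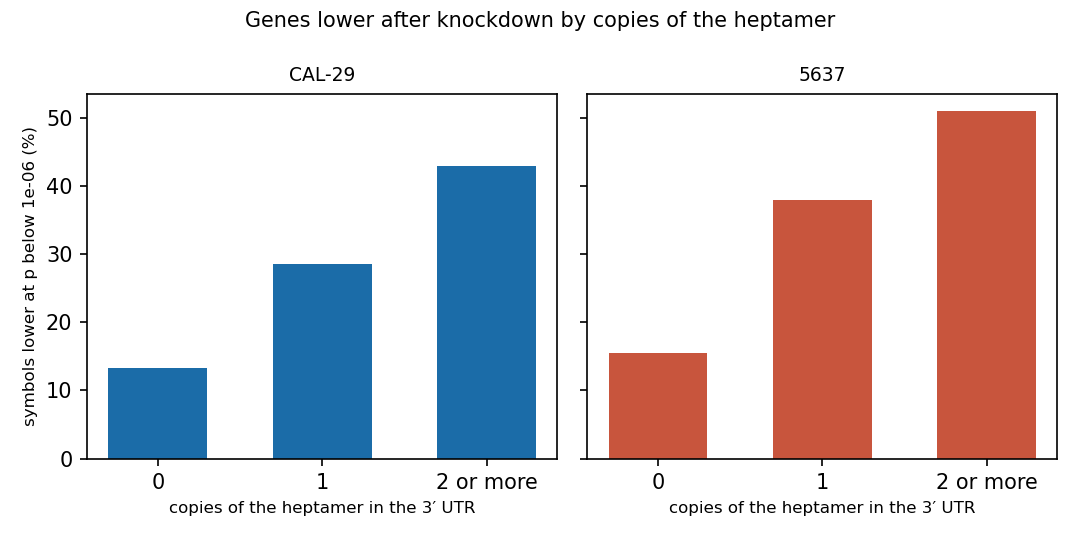
Share of genes (%, vertical axis) lower after siKMT9α at p below 1e-06, by the number of copies of the heptamer in the longest annotated 3′ UTR (horizontal axis), in CAL-29 (left) and 5637 (right). The bars go up from 13.3% to 42.9% in CAL-29 and from 15.5% to 51.0% in 5637, and SLC39A11 and SLC30A7 are among the genes with 2 or more copies.

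The metallothioneins responded differently in the 2 lines. In CAL-29, MT2A, MT1X and MT1E rose after siKMT9α, and in 5637, MT2A and MT1F fell. All 10 metallothionein genes lie within chr16:56642496-56718108 of GRCh37, and the MT1 genes are near-identical copies, so reads could be split between them and the value of any single MT1 gene is uncertain.

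MT2A, the main metallothionein of most human cells, was at 93.6, 104 and 107 CPM in the siCtrl libraries of CAL-29 and at 221, 214 and 182 CPM after siKMT9α. MT2A in 5637 was at 416, 416 and 444 CPM in the siCtrl libraries and at 280, 289 and 270 CPM after siKMT9α. The groups did not overlap in either line, and the lowest 5637 library stayed above the highest CAL-29 library. The log2 fold change was 1.02 (SE 0.06, adjusted p = 1.17e-11) in CAL-29, a 2.03-fold rise, and -0.61 (SE 0.03, adjusted p = 1.94e-15) in 5637, where MT2A ended 1.52-fold lower.

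MT1X was at 31.3, 36.6 and 35.9 CPM in the siCtrl libraries of CAL-29 and at 85.2, 78.9 and 70.2 CPM after siKMT9α, a log2 fold change of 1.17 (SE 0.07, adjusted p = 6.13e-12) or 2.26-fold. The libraries of 5637 stood at 16.1, 19.1 and 17.8 CPM and then at 16.5, 17.6 and 16.8 CPM, so the groups overlapped. Its log2 fold change in 5637 was -0.05 (95% interval -0.20 to 0.09, adjusted p = 0.508). Another annotated gene on the same strand shares 18.6% of the exonic bases of MT1X.

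MT1E was scarce, with 17, 17 and 23 counts in the siCtrl libraries of CAL-29 and 74.5, 80.5 and 66 counts after siKMT9α. In CPM these are 0.693, 0.664 and 0.869 against 2.42, 2.45 and 2.62, a log2 fold change of 1.73 (SE 0.24, adjusted p = 2.49e-06). In 5637 MT1E was at 3.40, 3.39 and 2.74 CPM in the siCtrl libraries and at 1.84, 2.60 and 1.69 CPM after siKMT9α. Its log2 fold change there was -0.64 (SE 0.18, adjusted p = 0.00186), past the adjusted threshold only. The call of MT1E in CAL-29 was lost when any library other than siCtrl replicate 1 was left out, with a log2 fold change between 1.66 and 1.88 throughout.

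MT1F fell in 5637 with a log2 fold change of -0.93 (SE 0.12, adjusted p = 7.34e-08), while its value in CAL-29 was -0.04 (95% interval -0.32 to 0.24), a difference of 0.91 that was not past 1.5-fold in the test between the lines (glmTreat, adjusted p = 0.104). MT1A, MT1L and MT1M, all at or under 2.39 CPM, had log2 fold changes between -1.64 and -1.16 in 5637 at an adjusted p below 0.05. They passed the count filter in 5637 only, and MT1A and MT1M did so through the siCtrl libraries, so the filter favoured the fall of both. Of the exonic bases of MT1L, 100% are shared with another annotated gene on the same strand, so the counts of MT1L may belong to either. MT1L was counted on a non-coding RefSeq transcript, unlike the other metallothioneins. MT1G was higher in CAL-29 at the adjusted threshold, on 10, 3 and 3.5 counts against 43.5, 24 and 17 counts. It passed the count filter through the knockdown libraries, and in 5637 it had a total of 1 count over 6 libraries. MT1B had no count in any library, which allows at most 3 counts a library, and MT1H had at most 40 counts in a library and passed no filter within a line.

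Summed over the 10 genes, the metallothioneins were at 131, 147 and 150 CPM in the siCtrl libraries of CAL-29 and at 317, 302 and 261 CPM after siKMT9α. In 5637 the sum was 445, 449 and 476 CPM and then 304, 314 and 294 CPM. MT2A made up 71.1% and 70.1% of the sum in CAL-29 (siCtrl and siKMT9α) and 93.1% and 92.0% in 5637. With all 12 libraries scaled together, 5637 held 3.36 times the metallothionein sum of CAL-29 in siCtrl libraries (3.11 to 3.81 over pairs of libraries) and 1.07 times as much after siKMT9α (0.963 to 1.25). For MT2A alone the ratio of 5637 to CAL-29 went from 4.39 (4.07 to 4.98) to 1.41 (1.27 to 1.64), and for MT1E from 4.48 (3.29 to 5.37) to 0.847 (0.667 to 1.12). For the sum, MT2A and MT1E the levels of the lines lay closer after knockdown than before it, and for the sum and MT1E the libraries of the lines then overlapped. MT1X moved the other way: CAL-29 held 1.87 times the level of 5637 in siCtrl libraries (1.56 to 2.17) and 4.44 times after siKMT9α (3.85 to 4.98). For MT1F, 5637 held 1.45 times the CAL-29 level in siCtrl libraries (1.24 to 1.70) and 0.773 times that level after siKMT9α (0.666 to 0.922).

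**Figure D2:**
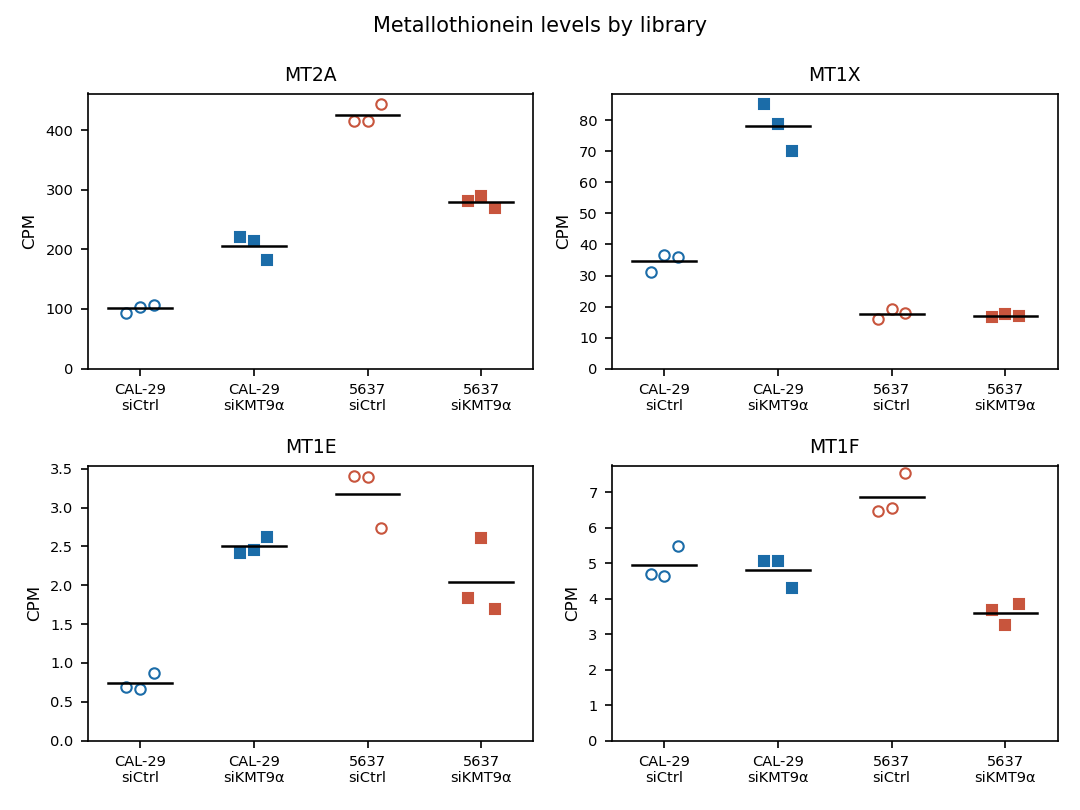
Level of MT2A, MT1X, MT1E and MT1F (CPM, vertical axis from 0, TMM-scaled within each line) in each library of the 4 groups (horizontal axis); open circles are siCtrl libraries, filled squares siKMT9α libraries, and bars the mean of 3 libraries. MT2A goes from 93.6-107 to 182-221 CPM in CAL-29 and from 416-444 to 270-289 CPM in 5637.

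The difference between the lines was tested as the response in CAL-29 minus the response in 5637, against a difference of 1.5-fold (glmTreat in edgeR, all 12 libraries). Of 29 members tested, 4 (13.8%) passed an adjusted p below 0.05 with a higher response in CAL-29, where 5.77% of 15395 genes did. They are all metallothioneins. The difference was 1.64 for MT2A (SE 0.08, adjusted p = 6.96e-13), 1.25 for MT1X (SE 0.11, adjusted p = 2.11e-06) and 2.39 for MT1E (SE 0.30, adjusted p = 5.33e-06), all in log2 units. For MT1M it was 2.16 (SE 0.64, adjusted p = 0.0481), a call that was lost in 9 of the 12 fits that left out a library. It held without siCtrl replicate 1 or siKMT9α replicate 3 of CAL-29 or siKMT9α replicate 2 of 5637. In the other direction glmTreat called 0 members, against 4.96% of genes, and 1 member (SLC39A14) had an unadjusted p below 0.05. The F test against a difference of 0 called 6 members there. The share of all genes called by that test is not given here, so this count is a description.

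The promoters of 26 of the 35 members were found in the RefSeq table on GRCh38.p14, a build other than that of the counts, as windows of 250 bases before to 50 bases after a start site. MT1A, MT1E, MT1F, MT1G, MT1L, MT1M, SLC30A8, SLC39A4 and SLC39A14 are not among them. The core of the metal response element was searched as TGCACNC or TGCGCNC on both strands, where N is any base, and these motifs cannot match at the same position of a strand. The windows of MT2A and MT1X, which rose together in CAL-29, and of SLC30A1, which did not, are shown 5′ to 3′ with the matches in capitals.
MT2A promoter, chr16:56608334-56608633, plus strand: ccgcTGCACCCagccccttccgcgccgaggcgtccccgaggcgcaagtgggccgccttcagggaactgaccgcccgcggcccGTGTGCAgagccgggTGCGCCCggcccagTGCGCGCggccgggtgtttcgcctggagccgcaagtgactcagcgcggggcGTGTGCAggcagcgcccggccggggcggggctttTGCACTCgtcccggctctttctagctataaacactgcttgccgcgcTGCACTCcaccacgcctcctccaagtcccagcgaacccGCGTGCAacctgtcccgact
MT1X promoter, chr16:56682220-56682519, plus strand: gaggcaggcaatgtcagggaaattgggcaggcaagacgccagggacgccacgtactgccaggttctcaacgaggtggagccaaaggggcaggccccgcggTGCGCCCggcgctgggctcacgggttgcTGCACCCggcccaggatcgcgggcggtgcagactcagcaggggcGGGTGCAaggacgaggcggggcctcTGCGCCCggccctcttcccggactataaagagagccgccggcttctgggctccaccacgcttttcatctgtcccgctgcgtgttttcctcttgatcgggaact
SLC30A1 promoter, chr1:211579112-211579411, minus strand: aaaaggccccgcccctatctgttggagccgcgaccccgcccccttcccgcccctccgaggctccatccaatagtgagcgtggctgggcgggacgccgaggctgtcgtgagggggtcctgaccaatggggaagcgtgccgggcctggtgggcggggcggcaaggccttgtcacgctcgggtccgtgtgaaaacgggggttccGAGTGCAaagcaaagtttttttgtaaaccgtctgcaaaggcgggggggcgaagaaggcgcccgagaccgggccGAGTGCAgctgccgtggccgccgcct
The MT2A window holds 8 matches, the MT1X window 4 and the SLC30A1 window 2. MT1H holds 8 and MT1B 3, although these genes had few counts or none in either line. Some genes have several windows. Of all 35116 windows in the table, 29.6% hold a match and 2.3% hold 3 or more, and of the 35 windows of members, SLC39A11 included, 17 (48.6%) and 5 (14.3%) do. Counted by gene over any window, 33.4% of 27305 genes hold a match and 2.8% hold 3 or more in a window. Of the 26 members, SLC39A11 included, 16 (61.5%) hold a match and 5 (19.2%) hold 3 or more, the 4 metallothioneins in the table and SLC30A2. The MTF1, SLC39A11 and SLC30A7 windows hold none. A match is a run of letters and says nothing of binding.

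MTF1 was at 42.3, 44.1 and 46.8 CPM in the siCtrl libraries of CAL-29 and at 41.2, 39.8 and 38.5 CPM after siKMT9α. The 5637 libraries had it at 33.3, 33.2 and 31.8 CPM and then at 29.1, 28.5 and 30.3 CPM. The groups did not overlap in either line, but the change was small. The log2 fold change was -0.16 (SE 0.06, adjusted p = 0.0242) in CAL-29 and -0.16 (SE 0.05, adjusted p = 0.00836) in 5637, both short of 1e-06.

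SLC30A1 (ZnT1), the zinc exporter of the plasma membrane and a target of MTF1, was at 29.9, 29.5 and 26.9 CPM in the siCtrl libraries of CAL-29 and at 25.0, 23.3 and 22.3 CPM after siKMT9α. Levels in 5637 were lower, at 12.2, 14.2 and 12.1 CPM and then at 11.3, 11.8 and 10.6 CPM. It was lower in both lines past the adjusted threshold only, with a log2 fold change of -0.29 (SE 0.07, adjusted p = 0.00143) in CAL-29 and -0.20 (SE 0.08, adjusted p = 0.0378) in 5637. In CAL-29 its value was opposite in sign to those of MT2A and MT1X.

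SLC39A10 (ZIP10) is an importer of the plasma membrane whose gene is known to be held down by MTF1 when zinc is high. It had the largest fold difference between the siCtrl libraries of the lines among members above 10 CPM in all of them. It was at 23.9, 22.5 and 20.5 CPM in the siCtrl libraries of CAL-29 and at 16.9, 17.3 and 19.2 CPM after siKMT9α. Its level in 5637 was 177, 177 and 187 CPM and then 171, 160 and 160 CPM. The log2 fold change was -0.33 (SE 0.08, adjusted p = 0.00131) in CAL-29 and -0.14 (SE 0.04, adjusted p = 0.00103) in 5637, short of 1e-06 in both.

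Of the SLC30A exporters, SLC30A7 fell in both lines by nearly the same amount. SLC30A7 (ZnT7) loads zinc into the early secretory pathway, where enzymes such as alkaline phosphatases receive it. It was at 132, 118 and 115 CPM in the siCtrl libraries of CAL-29 and at 87.2, 87.7 and 77.9 CPM after siKMT9α. SLC30A7 in 5637 was at 54.9, 53.1 and 52.7 CPM and then at 37.3, 39.0 and 36.9 CPM. The log2 fold change was -0.53 (SE 0.06, adjusted p = 8.11e-08) in CAL-29 and -0.51 (SE 0.05, adjusted p = 9.64e-11) in 5637, and the responses differed by -0.006 (95% interval -0.16 to 0.14). Without siKMT9α replicate 3 of CAL-29, SLC30A7 missed the threshold there, with a log2 fold change of -0.47.

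SLC30A5 (ZnT5), which forms a heterodimer with SLC30A6 (ZnT6) in the same pathway, rose in 5637 by 0.30 on the log2 scale (SE 0.05, adjusted p = 9.12e-07), a call that held only without siCtrl replicate 2 among the 6 fits that left out a library. In CAL-29 SLC30A5 and SLC30A6 were higher past the adjusted threshold only, with log2 fold changes of 0.16 (SE 0.05) and 0.18 (SE 0.06). SLC30A4, an exporter into endosomes and lysosomes, was lower in both lines past the adjusted threshold, with -0.31 (SE 0.10) in CAL-29 and -0.57 (SE 0.15) in 5637. SLC30A9 was at 0.10 (SE 0.06) in CAL-29 and -0.12 (SE 0.05) in 5637, the latter past the adjusted threshold. Over the exporters that passed the filter, the median log2 fold change was -0.004 for 8 genes in CAL-29 and -0.16 for 6 genes in 5637, beside -0.02 and -0.01 over all genes tested.

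Among the SLC39A importers, SLC39A13 fell in both lines and more so in CAL-29. SLC39A13 (ZIP13) releases zinc from the Golgi and vesicles, and its loss in people gives a form of Ehlers-Danlos syndrome. It was at 49.1, 47.8 and 41.2 CPM in the siCtrl libraries of CAL-29 and at 21.8, 22.1 and 21.7 CPM after siKMT9α. SLC39A13 in 5637 was at 59.1, 61.7 and 58.0 CPM and then at 40.9, 45.8 and 43.7 CPM. The log2 fold change was -1.07 (SE 0.07, adjusted p = 2.30e-11) in CAL-29, a 2.10-fold lower level, and -0.46 (SE 0.05, adjusted p = 1.34e-09) in 5637. These values come from a different transcript of SLC39A13 in each line, the one with the most counts there. The difference between the lines used the same transcript for both. At -0.60 (SE 0.09) it was not past 1.5-fold in glmTreat (adjusted p = 0.837), and it had an unadjusted p of 1.26e-07 in the F test against 0.

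Of the other importers, SLC39A14 (ZIP14), which also carries iron and manganese, fell in CAL-29 by 0.53 on the log2 scale (SE 0.05, adjusted p = 1.69e-08). In 5637 its value was 0.17 (SE 0.04), past the adjusted threshold in the opposite direction, and the difference of -0.68 (SE 0.07) missed the glmTreat threshold (adjusted p = 0.163). SLC39A6 (ZIP6), the partner of SLC39A10 at the plasma membrane, fell in 5637 by 0.79 (SE 0.04, adjusted p = 4.48e-17) and was at -0.14 (SE 0.04) in CAL-29, a difference of 0.67 (SE 0.06) with an adjusted p of 0.188 in glmTreat. In 5637, 4 of the 11 importers tested (36.4%) rose and 2 (18.2%) fell, beside 18.0% and 17.6% of genes. Those that rose were SLC39A4 by 0.41 (SE 0.05), SLC39A1 by 0.38 (SE 0.03), SLC39A7 by 0.35 (SE 0.04) and SLC39A9 by 0.33 (SE 0.04) on the log2 scale. SLC39A4 takes up dietary zinc in the gut, SLC39A1 sits at the plasma membrane of most cells, and SLC39A7 and SLC39A9 release zinc from the endoplasmic reticulum and Golgi. Their values in CAL-29 were 0.40 (SE 0.10), 0.24 (SE 0.04), 0.03 (SE 0.04) and -0.05 (SE 0.05), of which those of SLC39A4 and SLC39A1 passed the adjusted threshold only. The call of SLC39A4 in 5637 was lost without siKMT9α replicate 2, and 60.8% of the exonic bases of SLC39A1 are shared with another annotated gene on the same strand.

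The importers left moved little or were scarce. SLC39A8 (ZIP8), which also carries cadmium and manganese, was at -0.33 (SE 0.08) in CAL-29, past the adjusted threshold only, and at 0.04 (SE 0.05) in 5637. SLC39A3 was at 0.03 (SE 0.07) and 0.02 (SE 0.06), short of both thresholds. SLC39A5 had between 5 and 14 counts in every library and passed the filter in 5637 only, with a value of -0.53 (SE 0.44). It passed there through the siCtrl libraries, so the filter favoured a lower value. SLC39A12 had a total of 1 count over 12 libraries. SLC30A2, SLC30A3 and SLC39A2 passed the filter in CAL-29 only, with values of -0.06 (SE 0.28), 0.06 (SE 0.24) and 0.28 (SE 0.16), and none passed a threshold.

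**Figure D3:**
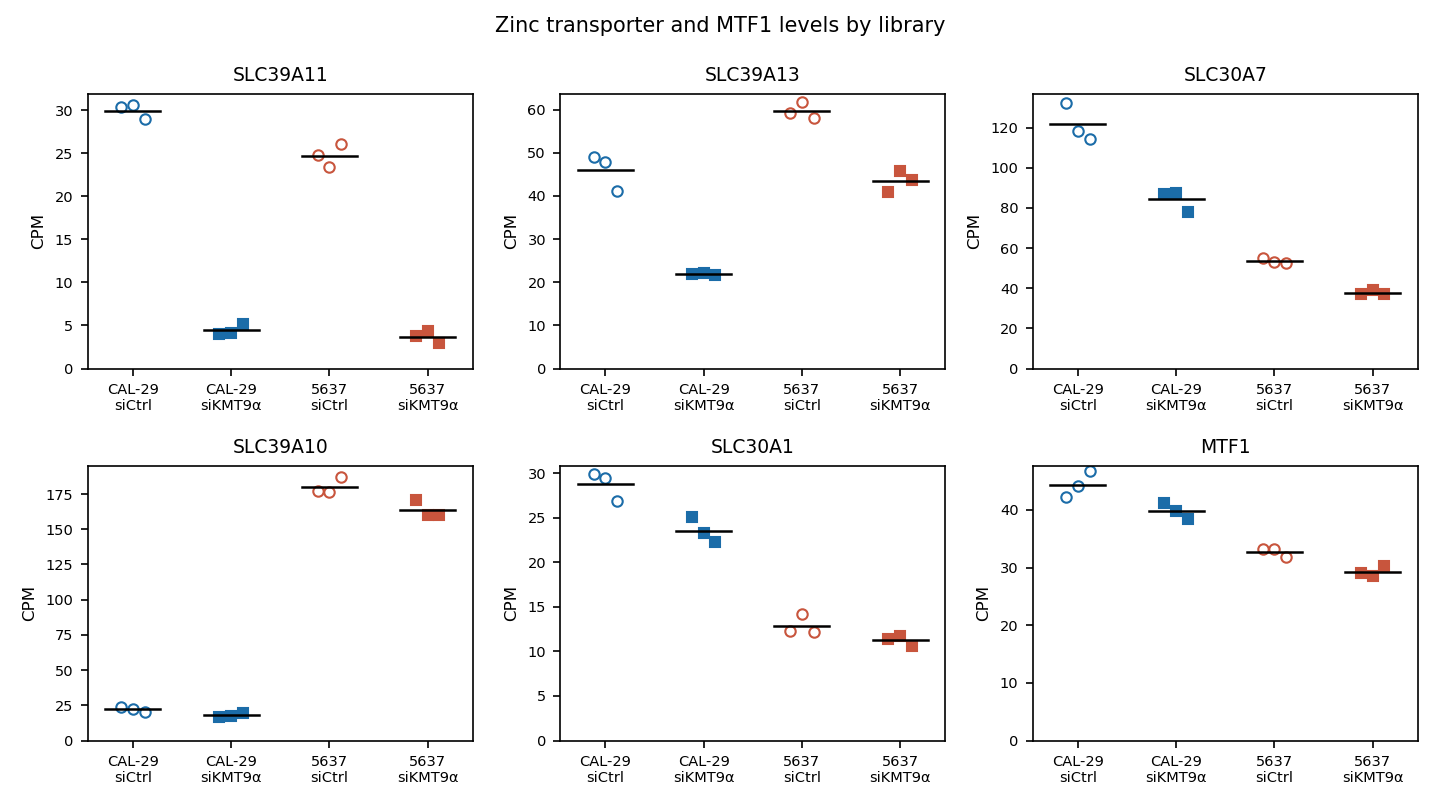
Level of SLC39A11, SLC39A13, SLC30A7, SLC39A10, SLC30A1 and MTF1 (CPM, vertical axis from 0, TMM-scaled within each line) in each library of the 4 groups (horizontal axis); open circles are siCtrl libraries, filled squares siKMT9α libraries, and bars the mean of 3 libraries. SLC39A11 goes from 29.0-30.6 to 4.02-5.21 CPM in CAL-29 and from 23.4-26.1 to 2.92-4.36 CPM in 5637, while MTF1 lies between 28.5 and 46.8 CPM in all libraries.

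At p below 1e-06 the shares of members called lay near those of all genes in both lines. At the adjusted threshold more members were lower in 5637, in part genes whose direction the count filter favoured. In CAL-29, 25 of 34 members passed the filter on low counts and 3 rose and 3 fell at p below 1e-06, beside 15.0% and 15.0% of 14673 genes. At the adjusted threshold 8 (32%) were higher and 9 (36%) lower, beside 34.3% and 35.2% of genes. In 5637, 25 members passed the filter and 5 rose and 5 fell, beside 18.0% and 17.6% of 14335 genes. At the adjusted threshold 6 (24%) were higher and 14 (56%) lower, beside 35.1% and 35.6% of genes. Of these 14, MT1A and MT1M passed the filter in 5637 through the siCtrl libraries, so the filter favoured their fall. It likewise favoured the rise of MT1G, among the 8 higher in CAL-29. MT2A, SLC30A7 and SLC39A13 passed 1e-06 in both lines, MT2A in opposite directions. Over all genes, SLC39A11 included, 1161 fell in both lines. The share of genes called in both lines in any direction was not computed, so the count of members is a description.

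**Figure D4:**
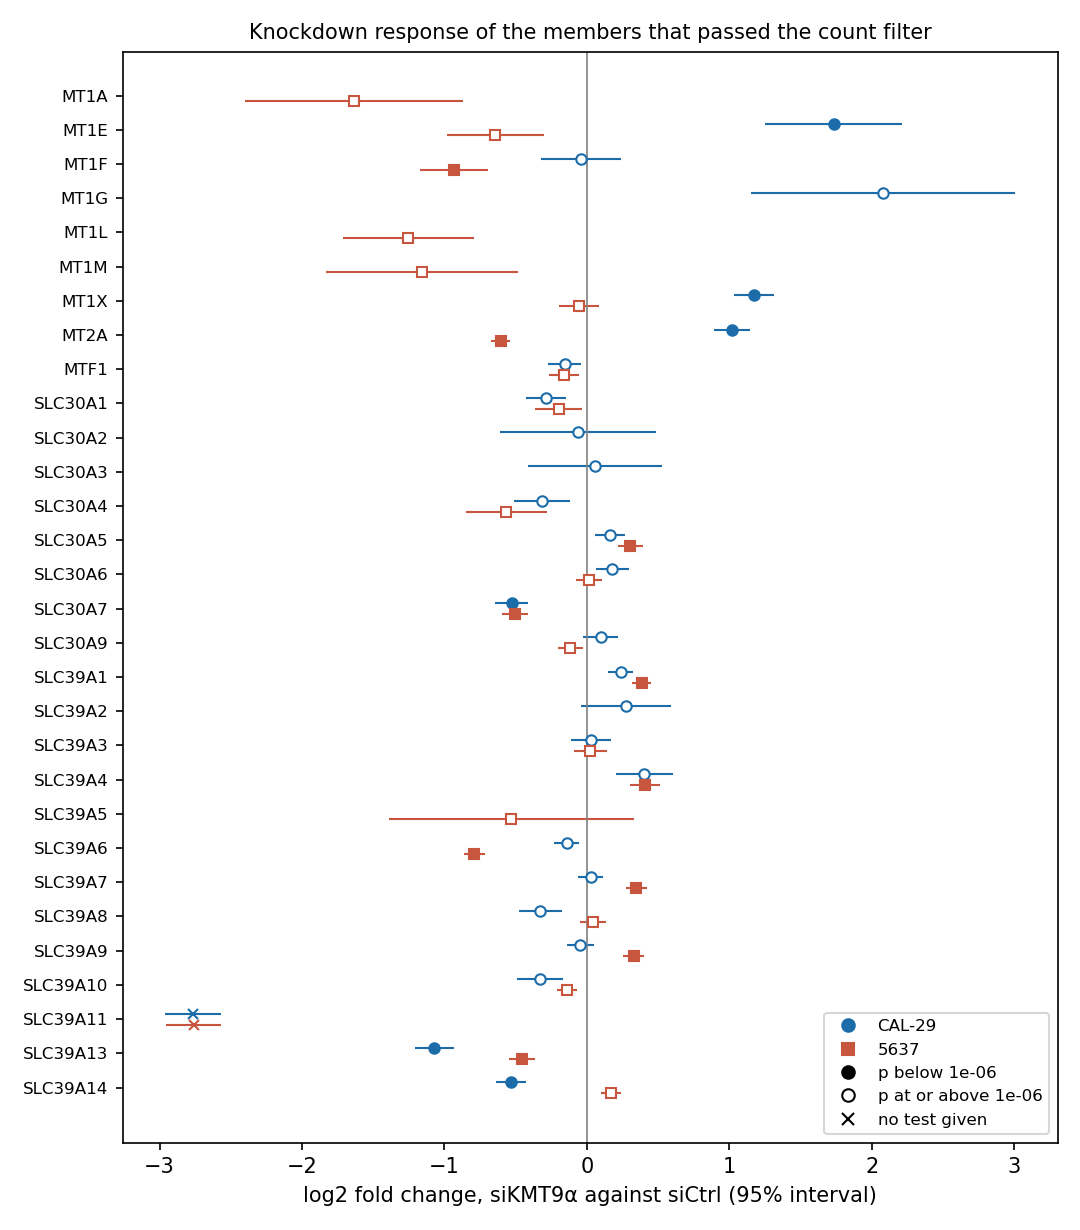
Log2 fold change of siKMT9α against siCtrl (horizontal axis, with 95% intervals) for each member that passed the filter on low counts (vertical axis), in CAL-29 (blue circles) and 5637 (red squares); filled symbols have p below 1e-06 and crosses mark SLC39A11, for which no test is given. MT2A lies at 1.02 in CAL-29 and -0.61 in 5637, whereas SLC30A7 and SLC39A11 lie at nearly the same place in both lines.

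The siCtrl libraries compare the lines before knockdown, a contrast that did not enter the choice of the family. CAL-29 held more SLC30A1, SLC30A4, SLC30A5, SLC30A6 and SLC30A7, and 5637 held more MT2A and SLC39A10. Of 27 members tested, 12 (44.4%) were higher in CAL-29 and 7 (25.9%) lower at p below 1e-06, beside 26.6% and 28.1% of 15070 genes. At the adjusted threshold the counts were 16 and 11, beside 42.6% and 42.6% of genes. Of these 27, SLC30A2, SLC30A3 and SLC39A2 passed the filter within CAL-29 only and MT1A, MT1L and MT1M within 5637 only, so the filter set their direction. Over the 21 members that passed it within each line, 9 (42.9%) were higher and 5 (23.8%) lower in CAL-29 at p below 1e-06, beside 25.8% and 28.7% of 13662 genes.

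The 6 exporters that passed the filter within each line had values above 0, as did 6705 of the 13662 genes that passed it so. At p below 1e-06, 5 of the exporters were higher in CAL-29 and 0 lower, beside 25.8% and 28.7% of those genes. The median log2 difference of the 6 exporters was 1.05, beside -0.02 over all genes that passed within each line. SLC30A1 was 2.14-fold higher (log2 1.10, SE 0.08), SLC30A7 2.18-fold (log2 1.12, SE 0.06), SLC30A5 2.01-fold (log2 1.01, SE 0.05) and SLC30A4 2.98-fold (log2 1.58, SE 0.12). SLC30A9, a mitochondrial exporter, differed least, by 0.19 (SE 0.06). SLC30A3, an exporter into synaptic vesicles, had 64, 55 and 59.5 counts in CAL-29 and 8, 23 and 14.5 counts in 5637. SLC30A2, an exporter into secretory vesicles, had 43, 59.5 and 29 counts in CAL-29 and 0, 1 and 0 counts in 5637. SLC30A8, the exporter of insulin granules, and SLC30A10, a manganese exporter, had 0 counts in the siCtrl libraries of both lines, which allows at most 3 counts a library.

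Of the importers, SLC39A10 was 8.43-fold lower in CAL-29 (log2 -3.08, SE 0.06, adjusted p = 3.50e-19), SLC39A4 4.02-fold lower (log2 -2.01, SE 0.08) and SLC39A8 2.52-fold lower (log2 -1.34, SE 0.06). SLC39A7 was 3.05-fold higher in CAL-29 (log2 1.61, SE 0.05), SLC39A14 2.05-fold (log2 1.04, SE 0.05) and SLC39A9 1.42-fold (log2 0.50, SE 0.05). SLC39A2 had 81, 116 and 121 counts in CAL-29 and 3, 0 and 0 counts in 5637. MT2A was 4.37-fold lower in CAL-29 (log2 -2.13, SE 0.06, adjusted p = 3.37e-17), while MT1X was 1.88-fold higher (log2 0.91, SE 0.08, adjusted p = 1.90e-09). MTF1 differed by 0.38 (SE 0.06, adjusted p = 6.15e-06 in edgeR), with an unadjusted p short of the threshold, and SLC39A11 by 0.21 (SE 0.06).

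Per kilobase of the canonical transcript, MT2A had the highest siCtrl level among the members in both lines, at 1078 ± 43.8 CPM per kb in 5637 and 246.5 ± 17 in CAL-29 (SD, n = 3). SLC39A1 came next, at 132.6 ± 2.56 and 161.0 ± 2.88 CPM per kb, though 60.8% of its exonic bases are shared with another annotated gene on the same strand. In 5637 SLC39A6 (46.4 ± 1.51) and MT1X (44.4 ± 3.87) followed and did not differ beyond their spread. In CAL-29 SLC39A7 (123.9 ± 2.13) and MT1X (83.5 ± 7.0) followed. SLC39A11 stood at 9.21 ± 0.518 CPM per kb in 5637 and 10.7 ± 0.315 in CAL-29. The canonical transcript may differ from the RefSeq transcript that was counted, whose length was not available, so this order of members is approximate.

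**Figure D5:**
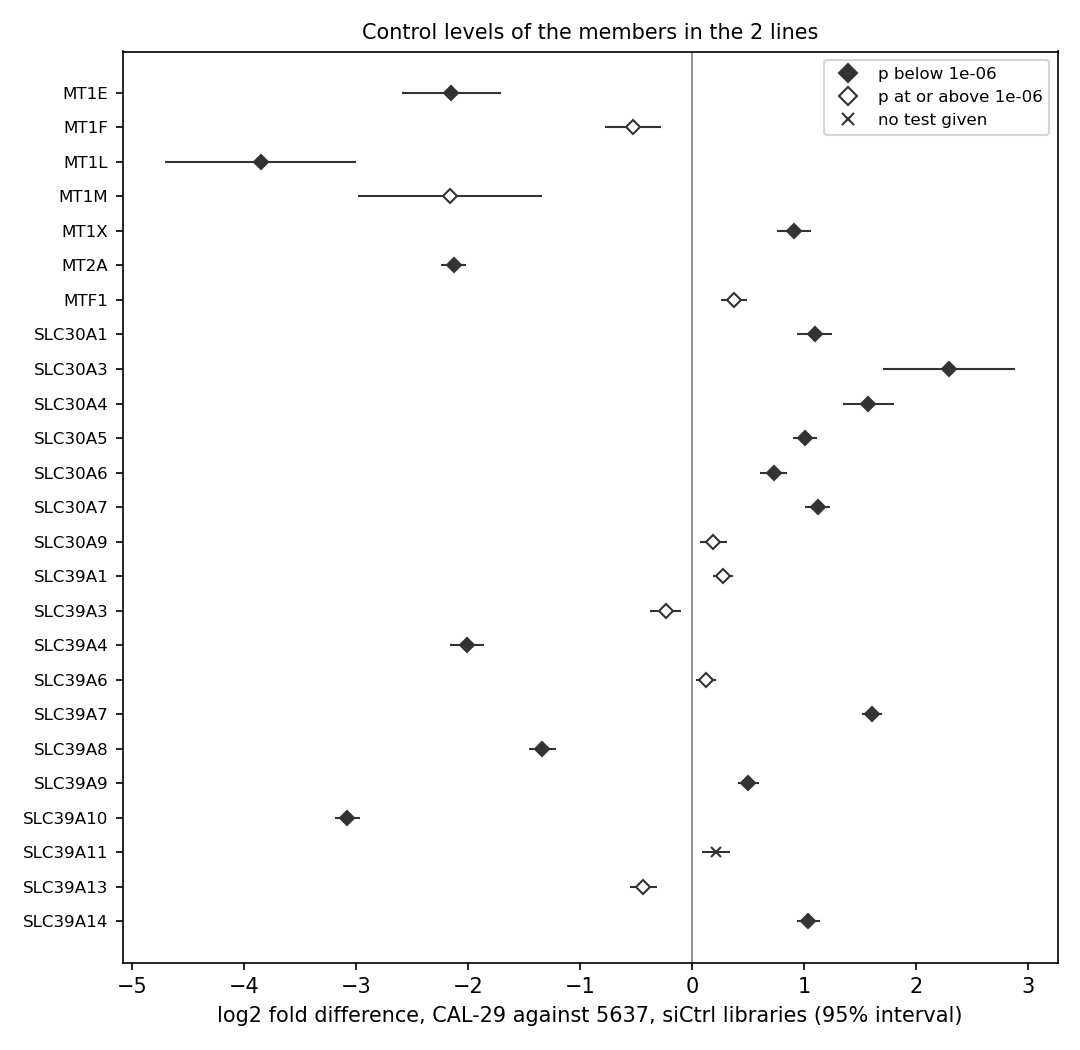
Log2 fold difference of CAL-29 against 5637 in siCtrl libraries (horizontal axis, with 95% intervals) for each member that passed the filter on low counts (vertical axis), without MT1A, SLC30A2 and SLC39A2, which were at or near 0 in 1 line; filled symbols have p below 1e-06 and the cross marks SLC39A11. The SLC30A exporters lie right of 0, from 0.19 for SLC30A9 to 2.29 for SLC30A3 (which passed the filter within CAL-29 only), while MT2A lies at -2.13 and SLC39A10 at -3.08.

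Of 37 other genes that handle iron, copper, magnesium, manganese or zinc, 32 passed the filter in each line, and 4 rose and 3 fell in CAL-29 (beside 15.0% and 15.0% of genes) and 8 rose and 5 fell in 5637 (beside 18.0% and 17.6%) at p below 1e-06. HMOX1, the stress-induced heme oxygenase that frees iron from heme, was at 26.4, 24.0 and 25.5 CPM in the siCtrl libraries of CAL-29 and at 115, 98.6 and 99.8 CPM after siKMT9α. HMOX1 in 5637 was at 11.0, 11.5 and 11.3 CPM and then at 15.8, 19.2 and 20.3 CPM. It rose in both lines, by 2.05 on the log2 scale (SE 0.07) in CAL-29 and 0.71 (SE 0.08) in 5637, and the difference of 1.35 (SE 0.11, adjusted p = 3.37e-07 in glmTreat) was the only one called for this list, where 1 gene of 32 was higher in CAL-29 and 0 lower, beside 5.77% and 4.96% of genes. The ferritin heavy chain FTH1 rose by 0.97 (SE 0.06) and 0.72 (SE 0.03) and the light chain FTL by 0.40 (SE 0.05) and 0.21 (SE 0.03). CNNM4, a magnesium transporter, rose by 0.73 (SE 0.06) and 0.47 (SE 0.05). SLC31A2, a copper transporter of endosomes, fell by 1.95 (SE 0.06) and 1.59 (SE 0.06), and IREB2, an iron-sensing repressor of ferritin translation, fell by 0.45 (SE 0.05) and 0.70 (SE 0.05) on the log2 scale. These 6 genes were named for a call in the same direction in both lines, so their shared direction is not a result.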

How the data were processed

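RNA was sequenced from 12 libraries, 3 for each siRNA in each line. The authors aligned reads to hg19 with STAR, counted them per RefSeq transcript with HOMER and deposited estimated counts in steps of 0.5 without normalization for 37400 transcripts of 23064 symbols. The strand setting and any handling of reads shared between copies are not given in the sources used here. Columns with the authors' own p-values, adjusted p-values and log2 fold changes in the deposited tables were not used.

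Each symbol was represented by its transcript with the highest summed counts, rounded to integers for the tests. That transcript was chosen within each line for the fits of a line, and over both lines for the comparisons between them. Among members it differed between the lines for SLC39A13, SLC39A4 and SLC39A5. In edgeR 4.0.16 (R 4.3.3), genes were filtered with filterByExpr, scaled with TMM and tested with the quasi-likelihood F test in each line (siRNA as the only term), between the siCtrl libraries of the lines, and for the interaction over 12 libraries with glmTreat against 1.5-fold. Calls were at p below 1e-06, or at an adjusted p below 0.05 for the interaction. CPM is TMM-scaled. An exact permutation test of 3 against 3 libraries cannot go below 0.1, so it was not used. The SE is the absolute log2 fold change divided by the square root of F of the quasi-likelihood test. Libraries held 24479348.5 to 35151256.5 counts. Pairs of replicates gave 2.22 to 11.7 for chi-square divided by its degrees of freedom, above sampling noise, so well-counted genes are limited by spread rather than depth. The 95% intervals are built from this SE, which includes the spread between libraries. The limits of at most 3 counts a library, given for genes with 0 counts, cover counting error only. The tests were checked on simulated counts.

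Gene positions, 3′ UTRs and transcript lengths came from GENCODE on GRCh37, and promoters from RefSeq on GRCh38.p14. Values in each library are given for SLC39A11, MTF1, MT1E, MT1X, MT2A, SLC30A1, SLC39A10 and members past 1e-06 in both lines, and for HMOX1 and low counts after their values were seen. Up to 6 other metal handling genes were named by the smaller change of both lines. The members, lists and tests were chosen with earlier results of these data known, and the counts of genes by heptamer copies, the ratios between lines and the counts over genes that passed the filter within each line were added after seeing the data. Alternatives were other scalings, filters, tests and thresholds, a replicate term, other sequence windows and each library left out.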

Additional observations from a re-analysis of the deposited data

Results flagged for a closer look

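Of 8 metallothioneins tested, 4 had a knockdown response that differed between the lines by the test of the difference itself. Taken as CAL-29 minus 5637 on the log2 scale, all 4 differences were positive, a direction in which 5.77% of 15395 genes were called. The difference was 2.39 for MT1E, 2.16 for MT1M, 1.25 for MT1X and 1.64 for MT2A. MT1E rose in CAL-29 and was lower in 5637 past the adjusted threshold only, MT1X rose in CAL-29 with overlapping groups in 5637, and MT2A rose in CAL-29 and fell in 5637. MT1M rested on few counts, with 7.5, 5 and 2.5 against 15, 14 and 6.5 in CAL-29 and 31, 24 and 30 against 12, 13.5 and 6.5 in 5637 (siCtrl against siKMT9α). Its counts are given after its values were seen. The MT1M call had an adjusted p of 0.0481 in glmTreat. It was lost in most fits that left out a library, under RLE scaling and with the replicate number as a block.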

How the results depend on the processing

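The count of members called was 6 in CAL-29, 10 in 5637, 19 between the siCtrl libraries and 4 for the difference between the lines. With 1 library left out it ranged from 4 to 7, from 8 to 10, from 16 to 22 and from 3 to 4. Calling at an adjusted p below 0.05 gave 17 in CAL-29 and 20 in 5637, because the threshold is weaker. For the difference between the lines, scaling by total counts gave 7, and the F test against 0 gave 14, since it asks for no minimum difference. The share of all genes called is not given here for either, so both counts are a description. Total count scaling moved the median of all genes in that comparison from 0.04 to 0.16 and the share of calls that were higher from 53.8% to 68.0%. The heptamer was in 2 members with the shortest 3′ UTR in place of 4, and TGCACNC alone was in 10 members in place of 16. MT1E, MT1X and MT2A were called for the difference under every alternative run, and MT1M was not under RLE scaling or with the replicate number as a block.

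Correlations of same-numbered deviations were weak, between -0.01 and 0.09, and do not settle whether the replicate numbers pair the samples. For replicate 1 they were above the best other one, at 0.08 against -0.02 in CAL-29, 0.05 against -0.02 in 5637 and 0.09 against -0.04 between siCtrl libraries. For replicate 2 they were below it in CAL-29 and 5637, and for replicate 3 in 5637. The fits with the replicate block gave 6, 10, 22 and 3 calls. Values near 0 changed sign: the difference between the lines became 0.0461 for SLC30A1 and 0.111 for SLC30A7 with total count scaling, and with 1 library left out ranged from -0.0432 to 0.0589 for SLC30A7 and from -0.0101 to 0.0669 for MTF1, and the MT1X value in 5637 ranged from -0.115 to 0.0046. The longest listed transcript per symbol was not run for lack of lengths of the counted transcripts, and the mean of all listed transcripts, chosen after seeing the data, gave 6, 10, 19 and 4. Depth limits MT1A, MT1G, MT1H, MT1L, MT1M, SLC30A2, SLC30A3, SLC39A2 and SLC39A5.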
